A study of Mus musculus with 6 samples.

Results

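Complement is a system of serum proteins and cell receptors that tags microbes and dying cells for uptake and calls in immune cells. This report covers 8 complement genes that macrophages are known to use, which were selected by symbol from the 55291 genes of the count table. They were *C1qa*, *C1qb* and *C1qc*, which encode the A, B and C chains of C1q, *C3*, *Cfb* and *Cfp*, which encode the central component C3 and the alternative pathway proteins factor B and properdin, and *C3ar1* and *C5ar1*, which encode receptors for the C3a and C5a fragments. The data were bulk RNA-seq of bone marrow-derived macrophages (BMDMs), primary macrophages grown from bone marrow in medium with L929-conditioned medium as a source of M-CSF. WT and PYK2 KO BMDMs came from 3 mice each, with 1 library per mouse, taken after 7 days without IL-4 or other stimulation. All mice were labelled C57BL/6, and the knockout was of the whole animal, so that the marrow cells lacked PYK2 before they became macrophages. Mouse age is not given in the sources used here. The WT libraries carried the numbers 1, 5 and 6 and the PYK2 KO libraries the numbers 2, 3 and 4.

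C1q starts the classical pathway when it binds antibody complexes or altered cell surfaces, together with the proteases C1r and C1s. Unlike most complement proteins, which come mainly from the liver, C1q and properdin are made largely by macrophages and other myeloid cells. C3 is cut by convertases. Factor B supplies the protease of the alternative pathway convertase, factor D activates it, and properdin stabilizes it. The C3a and C5a fragments released in these steps act on C3aR and C5aR1, which are G protein-coupled receptors of myeloid cells.

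*Ptk2b*, which encodes PYK2, had 737, 701 and 568 counts in WT libraries 1, 5 and 6, and 71, 64 and 69 counts in PYK2 KO libraries 2, 3 and 4, so that the libraries followed their labels. The totals ran from 2857097 to 3917207 counts, and they overlapped between the genotypes. All 8 macrophage markers were present, with summed levels from 28680 to 29400 CPM (counts relative to the scaled library total) in WT and from 29790 to 30770 CPM in PYK2 KO BMDMs. Of the markers of other cells, 5 of 5 erythroid, 3 of 5 B cell (*Cd79a*, *Ms4a1* and *Pax5*), 5 of 7 dendritic cell, 3 of 5 T cell and 4 of 6 stromal genes had 0 counts in every library. The other B cell markers had counts, *Ighm* from 904 to 1367 and *Cd79b* from 43 to 80 per library, and the B cell list summed to between 369.5 and 401.3 CPM in WT and between 336.3 and 379.5 CPM in PYK2 KO BMDMs. All 8 neutrophil markers had counts, with a summed level from 128.8 to 181.1 CPM in WT and from 133.1 to 232.1 CPM in PYK2 KO BMDMs. In such bulk samples, fewer cells of a type and less RNA per cell cannot be told apart.

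No difference of a complement gene between WT and PYK2 KO BMDMs passed the test against the spread between mice. Of the 8 genes, 7 passed the filter on low counts and 0 of these 7 passed a Benjamini-Hochberg adjusted p-value of 0.05 in the quasi-likelihood test of edgeR, where 0.255% of the 9815 tested genes did. With an unadjusted p-value under 0.05 there were also 0 of 7, against 6.03% of all tested genes, and DESeq2 and limma-voom called 0 as well. This unadjusted count was above 0 in 6 of 14 other settings, and it was highest without WT library 6, with 3 of 7 (*C1qb*, *C1qc* and *C3*), and without PYK2 KO library 2, with 2 of 7 (*C1qc* and *C3*). It was 1 of 7 without a filter (*C1qc*), without scaling beyond the library total (*C1qa*), without PYK2 KO library 3 (*C1qa*) and without WT library 1 (*C3ar1*). The log2 fold changes of PYK2 KO against WT ran from -0.20 for *C1qc* to 0.26 for *C3ar1*, 4 above and 3 below 0. Their median was 0.00092, beside 0.0019 over all genes tested. The PYK2 KO values overlapped the WT values in all 7 genes, whereas they did not overlap in 10.2% of all tested genes.

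**Figure D1:**
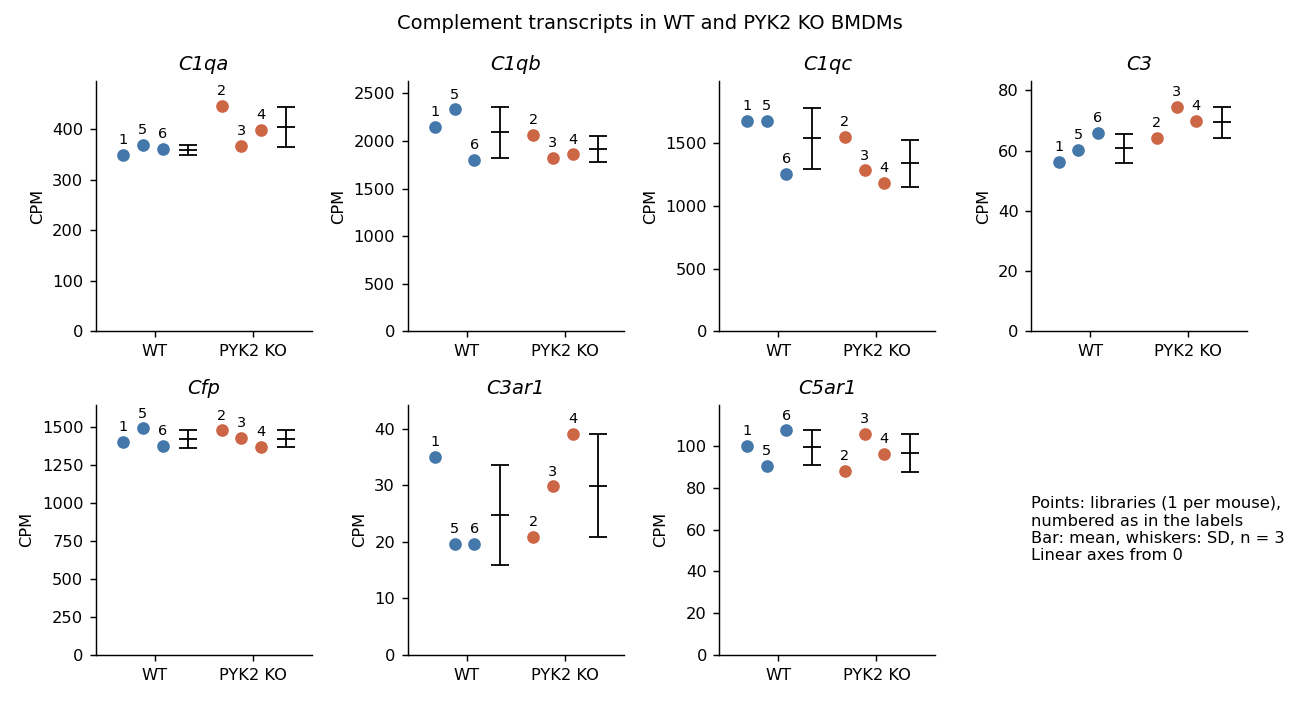
Level of each tested complement gene in CPM (linear axes from 0) in WT (blue) and PYK2 KO (orange) BMDMs. Each point is 1 library and carries its number, and bars give the mean and SD of 3 libraries. The points of the genotypes overlap in every panel, narrowly in *C1qa* and *C3* and widely in *C3ar1*, where WT library 1 and PYK2 KO libraries 3 and 4 stand above the others.

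The 3 C1q genes lie side by side on the minus strand of chromosome 4, from 136880129 to 136898803 (GRCm38, GENCODE M21), in the order *C1qb*, *C1qc* and *C1qa*, and together span 18.7 kb. No exon of theirs overlaps an exon of another annotated gene. The promoters of *C1qb* and *C1qc* are shown because these neighbors had the most alike levels over the libraries among the members, and that of *C3ar1* because its levels varied most. They are the RefSeq windows of GRCm38.p6 from 250 bases before to 50 bases after a start, at chr4:136886151-136886450, chr4:136892865-136893164 and chr6:122856108-122856407, all on the minus strand and written 5′ to 3′. Such a window was found for 6 of the 8 members, all but *C1qa* and *Cfb*. Capitals mark the matches to 8 motifs, sought on both strands.
C1qb: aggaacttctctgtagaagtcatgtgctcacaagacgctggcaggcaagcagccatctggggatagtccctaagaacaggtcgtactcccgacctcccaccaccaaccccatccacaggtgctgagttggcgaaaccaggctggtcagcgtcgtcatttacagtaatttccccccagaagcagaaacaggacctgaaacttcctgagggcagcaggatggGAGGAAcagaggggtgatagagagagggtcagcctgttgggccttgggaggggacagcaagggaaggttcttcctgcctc
C1qc: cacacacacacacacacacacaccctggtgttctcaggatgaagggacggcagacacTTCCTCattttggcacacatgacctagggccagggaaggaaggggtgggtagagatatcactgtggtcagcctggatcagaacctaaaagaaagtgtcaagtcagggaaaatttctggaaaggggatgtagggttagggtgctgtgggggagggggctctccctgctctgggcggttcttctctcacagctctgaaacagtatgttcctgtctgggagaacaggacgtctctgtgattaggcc
C3ar1: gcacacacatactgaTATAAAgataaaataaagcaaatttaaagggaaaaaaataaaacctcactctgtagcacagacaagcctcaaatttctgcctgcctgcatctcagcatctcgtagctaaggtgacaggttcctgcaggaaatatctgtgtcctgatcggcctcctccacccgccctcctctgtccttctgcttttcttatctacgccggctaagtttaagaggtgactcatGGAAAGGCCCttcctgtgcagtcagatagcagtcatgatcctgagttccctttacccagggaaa
The capitals in *C1qb* and *C1qc* are both the core of the ETS motif GAGGAA, which PU.1, the master factor of myeloid cells, can bind. It stood at bases 221 to 226 of the *C1qb* window and, on the opposite strand, at bases 58 to 63 of the *C1qc* window. This short motif was present in 28.3% of all 32851 promoter windows of the same length, and it had 2 matches in the window of *Cfp*. In *C3ar1* the capitals are a TATA box motif TATAAA at bases 16 to 21, found in 13.6% of all windows, and an NF-kB motif (GGG and TTTCC with any 2 bases between them) on the opposite strand at bases 237 to 246, found in 1.63%. The MAF half-site TGCTGAC, the interferon element core (GAAA and GAAA with any 2 bases between them) and the STAT element TTCNNNGAA had 0 matches in the 6 windows. The C/EBP motif TTGCNNAA and the CCAAT motif were matched in *C3* and *C5ar1*, respectively, and in none of the windows printed above. TATAAA was matched in *C3* as well.

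Among the C1q chains, the levels of *C1qa* leaned toward PYK2 KO and those of *C1qb* and *C1qc* toward WT, but none passed the test. *C1qa*, the A chain gene, was at 349, 369 and 360 CPM in WT libraries 1, 5 and 6, and at 445, 367 and 399 CPM in PYK2 KO libraries 2, 3 and 4. The WT values were close together, PYK2 KO libraries 2 and 4 were above all of them, and PYK2 KO library 3 fell just below WT library 5. The means were 359 ± 9.92 and 404 ± 39.3 CPM (SD over 3 mice each), and the log2 fold change was 0.17 (SE 0.09, edgeR, Benjamini-Hochberg adjusted p = 0.873). The 95% interval of this difference ran from 0.989-fold to 1.28-fold. Dropping single libraries moved the log2 value of *C1qa* to between 0.09 (PYK2 KO library 2 dropped) and 0.23 (PYK2 KO library 3 dropped).

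*C1qb*, the B chain gene, was at 2146, 2331 and 1798 CPM in WT libraries 1, 5 and 6. In PYK2 KO libraries 2, 3 and 4 it was at 2067, 1822 and 1859 CPM. WT library 6 was the lowest of all, and the other WT libraries were the highest. The means were 2092 ± 271 CPM in WT and 1916 ± 132 CPM in knockout BMDMs (SD over 3 mice each), with a log2 fold change of -0.13 (SE 0.09, edgeR, Benjamini-Hochberg adjusted p = 0.932) and an interval from 0.801-fold to 1.05-fold.

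*C1qc*, the C chain gene, was at 1681, 1679 and 1257 CPM in WT libraries 1, 5 and 6 and at 1551, 1283 and 1184 CPM in PYK2 KO libraries 2, 3 and 4. WT libraries 1 and 5 were again the highest and PYK2 KO library 2 came next, while WT library 6 lay among the lower PYK2 KO libraries. The log2 fold change was -0.20 (SE 0.11, edgeR, Benjamini-Hochberg adjusted p = 0.896), with an interval from 0.736-fold to 1.03-fold. Without WT library 6 the log2 fold change of *C1qc* was -0.33 and that of *C1qb* was -0.22, and without WT library 5 they were -0.13 and -0.04, none past the threshold. Summed over the 3 chains, C1q transcripts made up from 0.341% to 0.429% of all counts in WT libraries and from 0.347% to 0.399% in PYK2 KO libraries.

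The C1q protein holds its A, B and C chains in equal numbers, and the ratio of their transcripts within a library does not depend on how libraries are scaled to each other. *C1qa* counts were 16.3%, 15.8% and 20.0% of *C1qb* counts in WT libraries 1, 5 and 6, and 21.5%, 20.1% and 21.5% in PYK2 KO libraries 2, 3 and 4. The PYK2 KO ratios were thus above all WT ratios, with WT library 6 only just below PYK2 KO library 3, and they averaged 17.4% ± 2.31 in WT and 21.1% ± 0.781 in PYK2 KO BMDMs (SD over 3 mice each). This ratio was chosen after the values were seen and was not tested. Relative to *C1qc*, the *C1qa* counts were 23.8% ± 4.24 in WT and 30.3% ± 2.89 in PYK2 KO BMDMs (SD over 3 mice each), with WT library 6, at 28.63%, a little above PYK2 KO library 3, at 28.61%. The ratio of *C1qc* to *C1qb* counts overlapped between the genotypes, at 73.4% ± 4.38 and 69.7% ± 5.69 (SD over 3 mice each). These ratios are of 3′-end counts and are not numbers of transcripts per cell.

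**Figure D2:**
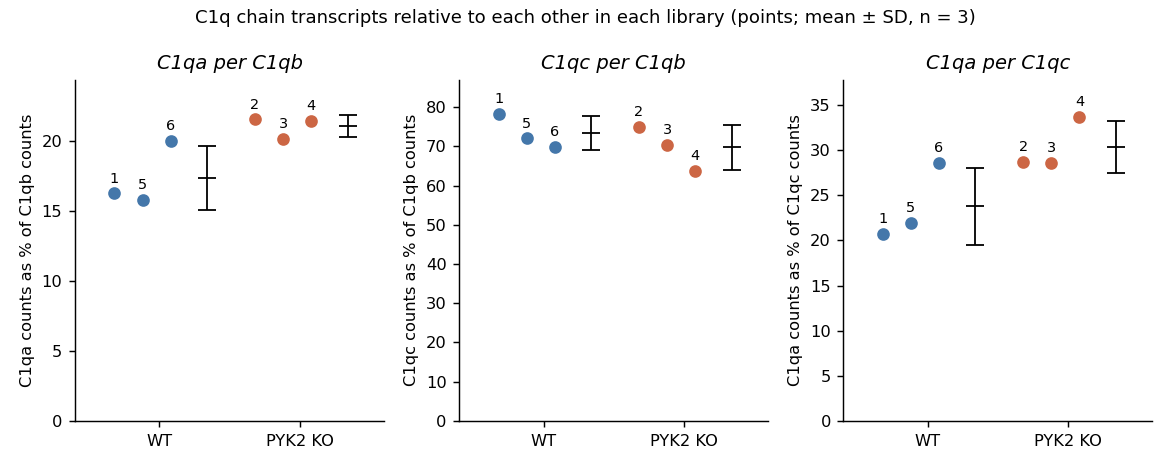
Counts of one C1q chain gene as a percentage of another within each library (linear axes from 0), for WT (blue) and PYK2 KO (orange) BMDMs, with the library numbers and the mean and SD of 3 libraries. *C1qa* per *C1qb* is higher in the PYK2 KO libraries, with WT library 6 at 20.0% just under the lowest of them at 20.1%, and the other pairs overlap.

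*C3*, the component on which all activation routes meet, is encoded on the minus strand of chromosome 17 at 57203970 to 57228136. Its counts were moderate in all BMDMs, from 188 to 234. It was at 56.2, 60.2 and 65.9 CPM in WT libraries 1, 5 and 6, and at 64.2, 74.5 and 69.7 CPM in PYK2 KO libraries 2, 3 and 4. PYK2 KO libraries 3 and 4 were above all WT libraries, and PYK2 KO library 2 was below WT library 6. The means were 60.8 ± 4.88 and 69.5 ± 5.16 CPM (SD over 3 mice each), with a log2 fold change of 0.20 (SE 0.10, edgeR, Benjamini-Hochberg adjusted p = 0.88). The interval ran from 0.983-fold to 1.34-fold and included no change.

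*Cfp*, which encodes properdin, the stabilizer of the C3 convertase, lies on the X chromosome from 20925454 to 20931555 on the minus strand. It was the steadiest member, at 1406, 1493 and 1376 CPM in WT libraries 1, 5 and 6 and at 1481, 1429 and 1369 CPM in PYK2 KO libraries 2, 3 and 4. The genotypes interleaved, and the coefficient of variation over all 6 libraries was 3.66%. The log2 fold change was 0.00092 (SE 0.07, edgeR, Benjamini-Hochberg adjusted p = 0.999), and its interval from 0.899-fold to 1.11-fold was the narrowest among the members.

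*Cfb*, which encodes factor B, had 0 counts in all 6 libraries and was not tested. A count of 0 allows a level of up to 3 counts, which is between 0.766 and 1.05 CPM in these libraries, and this limit covers counting error only. *Cfb* is annotated at 34856374 to 34862518 on the minus strand of chromosome 17, and 79.5% of its exonic bases are shared with *Gm20547*, a gene annotated on the same strand from 34856412 to 34882042, which also had 0 counts. How reads on shared bases were counted is not given in the sources used here. Of 136 protein-coding genes with at least 75% of their exonic bases shared with another gene on the same strand, 63.2% had 0 counts in every library, compared with 41.0% of 19844 genes with no shared base. Whether *Cfb* was not expressed or its reads were not assigned therefore cannot be told apart. Its neighbor *C2*, the factor B counterpart of the classical pathway, had between 1 and 5 counts per library. *C2* shares 42.8% of its exonic bases with *Gm20547* on the same strand, so the same limit holds for its few counts.

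The fragment receptors differed from each other in how much they varied between libraries. *C3ar1*, the C3a receptor gene, maps to the minus strand of chromosome 6 at 122847138 to 122856161. It was at 35.0, 19.6 and 19.6 CPM in WT libraries 1, 5 and 6 and at 20.9, 29.8 and 39.0 CPM in PYK2 KO libraries 2, 3 and 4. WT library 1 and PYK2 KO libraries 3 and 4 were high and the others low, so that each genotype held both kinds. The coefficient of variation over the 6 libraries was 31.2%, while counting error at its mean count accounts for 10.5%. The log2 fold change was 0.26 (SE 0.23, edgeR, Benjamini-Hochberg adjusted p = 0.938), with a wide interval from 0.846-fold to 1.69-fold. Leaving out WT library 1 gave 0.61 and leaving out PYK2 KO library 4 gave 0.006, neither past the threshold.

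*C5ar1*, the C5a receptor gene, maps to the minus strand of chromosome 7 at 16246743 to 16259540. It was at 100.4, 90.7 and 108 CPM in WT libraries 1, 5 and 6 and at 88.2, 106 and 96.3 CPM in PYK2 KO libraries 2, 3 and 4. No group of libraries stood apart, and the coefficient of variation over the 6 libraries was 8.06%. The log2 fold change was -0.04 (SE 0.10, edgeR, Benjamini-Hochberg adjusted p = 0.993), with an interval from 0.843-fold to 1.12-fold, and it was above 0 without WT library 6 (0.02) or PYK2 KO library 2 (0.02).

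**Figure D3:**
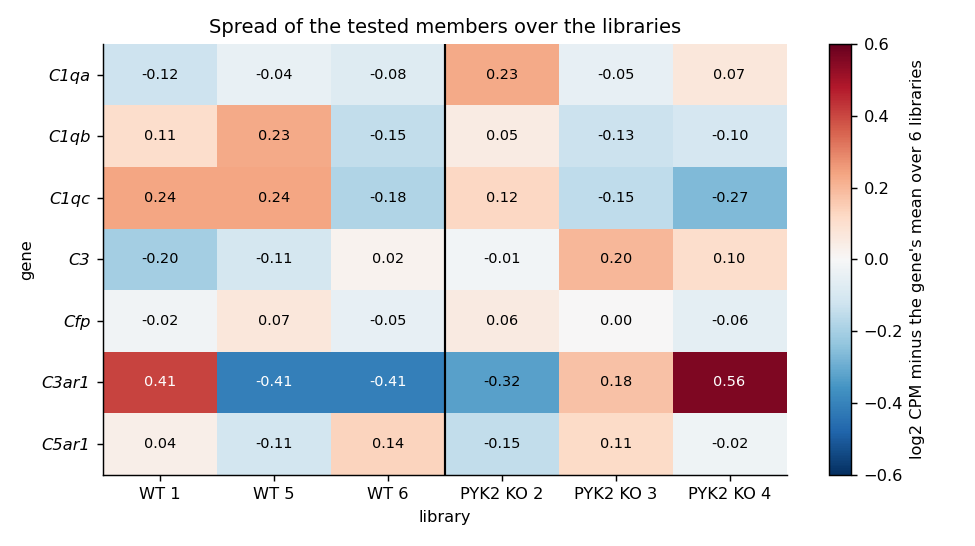
Level of the 7 tested members in each library as log2 CPM minus the gene's own mean over the 6 libraries (color scale and printed values, in log2 units), with WT libraries left and PYK2 KO libraries right of the line. *C3ar1* ranges from -0.41 to 0.56 and is high in WT library 1 and PYK2 KO libraries 3 and 4, *C1qb* and *C1qc* share their high libraries (WT 1, WT 5 and PYK2 KO 2), and *Cfp* stays within 0.07 of its mean.

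Likeness of levels over the 6 libraries was measured as the root mean square difference of centered log2 CPM, and the 3 nearest genes were named for members whose own SD on this scale was at least 0.2, which were *C1qc* and *C3ar1*. The nearest genes of *C1qc* were *Dapk3*, *Taf1c* and *Zc3h3*, at differences from 0.045 to 0.051 log2 units. The nearest member, *C1qb*, was at 0.093. Those of *C3ar1* were *Septin10*, *Cr1l* and *Impact*, at 0.08, 0.092 and 0.094 log2 units, while the nearest member, *C5ar1*, was at 0.39. The level of *Septin10* was only 1.96 to 4.60 CPM, where counting error is large.

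Of the genes near *C3ar1*, *Cr1l* is itself a complement gene. It encodes Crry, which protects mouse cells from their own complement by limiting C3 convertases. It was at 49.0, 28.8 and 30.8 CPM in WT libraries 1, 5 and 6. In PYK2 KO libraries 2, 3 and 4 it was at 29.2, 43.0 and 49.2 CPM, with a log2 fold change of 0.15 (edgeR, Benjamini-Hochberg adjusted p = 0.965). Its high values in WT library 1 and PYK2 KO libraries 3 and 4 follow from its choice as a near profile of *C3ar1*. The gene lists used here were searched for genes highest in these 3 libraries. Of the 12 other complement genes tested, only *Cr1l* and *Cd93* were. *Cd93* was at 264, 257 and 279 CPM in them, where the other libraries had 178 to 211 CPM. Of the 8 macrophage markers only *Mrc1*, a mannose receptor gene, was, at 130, 113 and 155 CPM, where the other libraries had 87.6 to 107 CPM. The marker *Lyz2* was instead lowest in WT library 1, at 23536 CPM. How many of all tested genes had this pattern was not determined. The 8 neutrophil markers, summed, were at 181.1, 232.1 and 230.4 CPM in these libraries, against 128.8, 147 and 133.1 CPM in WT libraries 5 and 6 and PYK2 KO library 2, and *S100a9* carried this pattern. The other 7 markers summed to 110.3, 138.9 and 127.3 CPM in the former and to 98.8, 113 and 82.5 CPM in the latter, so that WT library 1 was below WT library 6. Of the 6 neutrophil markers tested between the genotypes, 0 passed and 2 had an unadjusted p-value under 0.05, beside 6.03% of all tested genes. These were *S100a9* and *Mpo*, with log2 fold changes of 0.85 and 1.19 and Benjamini-Hochberg adjusted p-values of 0.537 and 0.591 in edgeR, while *Camp* and *Ltf* had -0.26 and -0.09. The part of neutrophils, or of any other difference between these libraries, in the *C3ar1* levels was not tested.

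**Figure D4:**
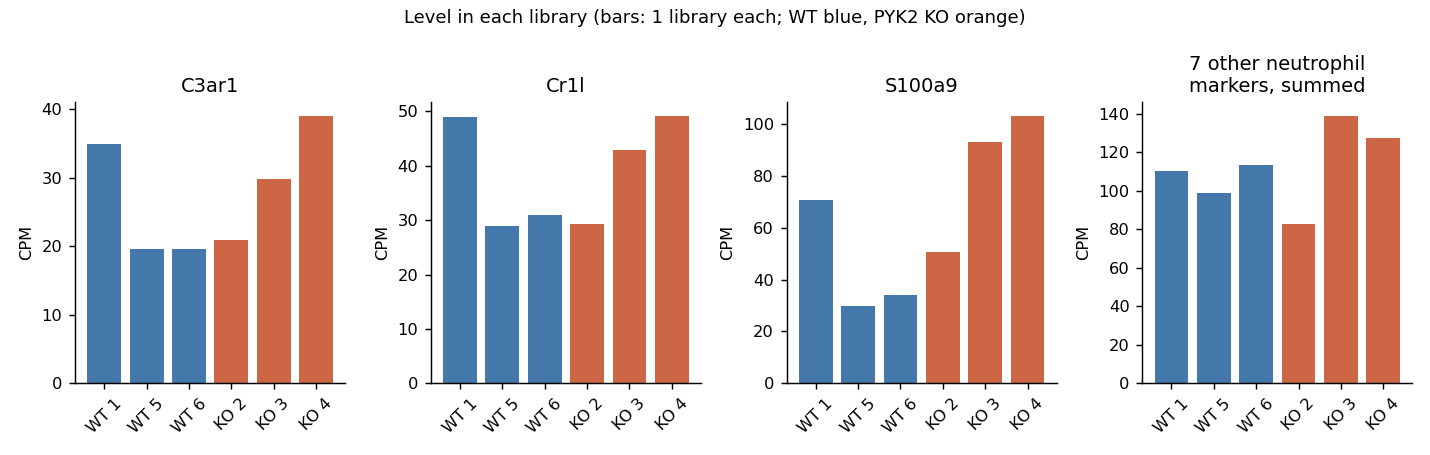
Level in CPM (linear axes from 0) of *C3ar1*, of *Cr1l*, of *S100a9* and of the other 7 neutrophil markers summed, with 1 bar per library, WT in blue and PYK2 KO in orange. In the panels of *C3ar1*, *Cr1l* and *S100a9*, WT library 1 and PYK2 KO libraries 3 and 4 are the highest, whereas in the summed panel WT library 6, at 113 CPM, is above WT library 1, at 110.3 CPM.

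The rest of the pathway was taken from a list of 52 other complement genes. Of these, 24 had 0 counts in every library, 35 never exceeded 3 counts, and 12 passed the filter. In edgeR's test 0 of the 12 passed the threshold (0 also at an unadjusted p-value under 0.05, and 0 with DESeq2 or limma-voom), 9 with a log2 fold change above and 3 below 0, and their median was 0.04. Of the proteases that act with C1q, *C1s1* had 0 counts and *C1ra* between 10 and 19 counts per library. *C1ra* averaged 3.75 ± 0.903 CPM in WT and 5.43 ± 0.505 CPM in knockout BMDMs (SD over 3 mice each), a log2 fold change of 0.53 (SE 0.31, edgeR, Benjamini-Hochberg adjusted p = 0.896). These few counts left an interval from 0.918-fold to 2.26-fold. Its paralog *C1rb* had 1 count in 1 library and 0 in the others. Factor D (*Cfd*), factor I (*Cfi*) and the C1 inhibitor (*Serping1*) were at 0 in every library, as were all 6 of *Hc*, which encodes C5, *C6*, *C7*, *C8a*, *C8b* and *C9*, the genes of the membrane attack complex, while *C8g* had between 2 and 13 counts.

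Receptors and partners of complement proteins were better covered. *Itgam* and *Itgb2*, which encode the chains of complement receptor 3, a receptor for C3 fragments, were at 612 ± 30.9 and 858 ± 68.1 CPM in WT and at 663 ± 8.01 and 838 ± 55.9 CPM in PYK2 KO BMDMs (SD over 3 mice each). *Itgam*, with a log2 fold change of 0.12 (adjusted p = 0.919), and *C1ra* were the genes of the list whose genotypes did not overlap, both higher in PYK2 KO, or 2 of 12 beside 10.2% of all tested genes, and they were singled out after their values were seen. *Calr* and *Lrp1*, which encode calreticulin and its receptor in the uptake of C1q-coated cells, had log2 fold changes of 0.06 and 0.0016. *Cd93*, once proposed as a C1q receptor, had 0.24 (adjusted p = 0.894) and *C1qbp* 0.12 (adjusted p = 0.929, all from edgeR with Benjamini-Hochberg adjustment). *C5ar2*, the second C5a receptor gene, had between 5 and 11 counts per library and was not tested.

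**Figure D5:**
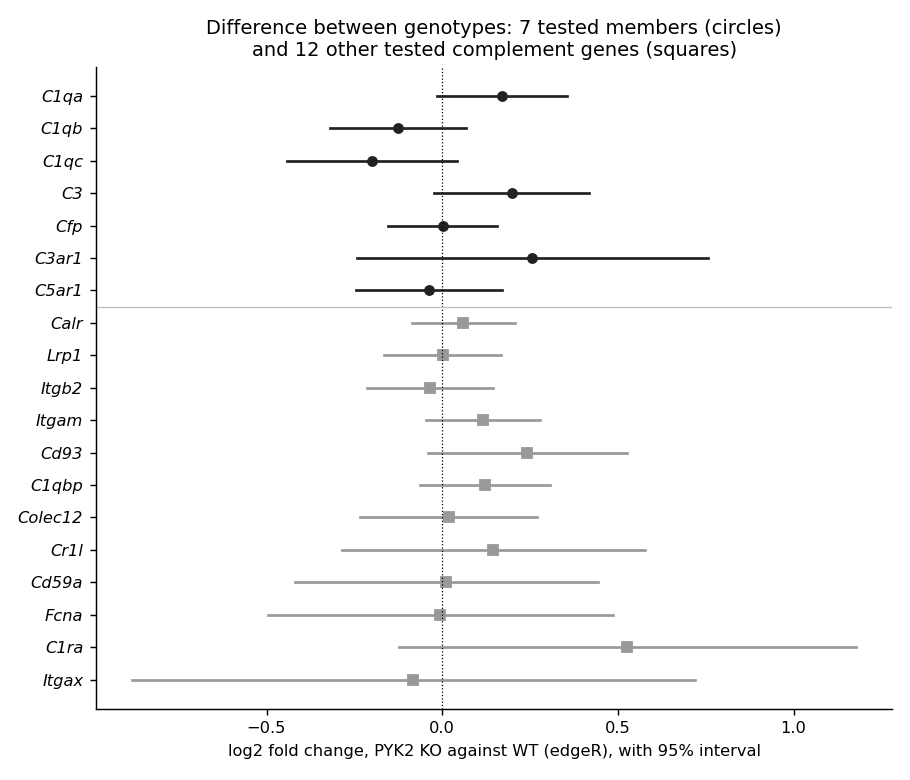
Log2 fold change of PYK2 KO against WT BMDMs from edgeR with its 95% interval, for the 7 tested members (black circles) and the 12 other tested complement genes (gray squares, ordered by WT level). All 19 intervals include 0, and the widest belong to genes with few counts, such as *Itgax* and *C1ra*.

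A further list held 10 transcription factor genes known to act on C1q or C3 genes or on macrophage identity, and all 10 were tested. In edgeR's test 0 passed the threshold, 0 had an unadjusted p-value under 0.05, and DESeq2 and limma-voom called 0. Of the log2 fold changes, 8 were below and 2 above 0, with a median of -0.09 and a range from -0.37 for *Nr1h3* (SE 0.22, edgeR, Benjamini-Hochberg adjusted p = 0.896) to 0.04 for *Nfkb1*. *Spi1*, which encodes PU.1, averaged 397 ± 34.7 CPM in WT and 351 ± 62.3 CPM in knockout BMDMs (SD over 3 mice each), a log2 fold change of -0.18 (edgeR, Benjamini-Hochberg adjusted p = 0.912). *Cebpb*, *Irf8* and *Rela*, which encodes a subunit of NF-kB, had log2 fold changes of -0.09, 0.0049 and -0.09, with Benjamini-Hochberg adjusted p-values from 0.952 to 0.999 in edgeR.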

How the data were processed

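Libraries of 3 WT and 3 PYK2 KO BMDM cultures were made by bulk MARS-seq, which reads transcripts at their polyadenylated 3′ end. The file deposited by the authors holds raw counts for each gene from the UTAP pipeline. The submitters' processing notes name cutadapt, STAR and mm10. The annotation, the use of strand and the collapsing of molecular identifiers are not given in the sources used here, so limits cover counting error only. Totals were 2857097 to 3917207 counts. No libraries were duplicates (chi-square per degree of freedom within a genotype at least 2.15).

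Counts were filtered (filterByExpr), scaled (TMM) and tested on genotype in R 4.3.3 with edgeR 4.0.16 (quasi-likelihood, Benjamini-Hochberg, threshold 0.05). CPM used the scaled totals of the tested genes. SEs were the fold change divided by the root of F. The script was tested on simulated data. Alternatives were DESeq2 1.42.0, limma 3.58.1, other scalings, filters and tests, and leaving out each library. Log2 CPM used a prior count of 2. The members and lists were chosen with earlier results of these data known, and 1 gene of each of 2 lists is not reported here. Named genes were the 8 members, *Ptk2b*, the 10 highest of the complement and regulator lists with any at an unadjusted p-value under 0.05, and the 3 nearest profiles. Markers, genes with few or 0 counts, *C1ra*, *Nr1h3* and *Nfkb1* were named outside this rule, after their values were seen. Positions were taken from GENCODE M21 (GRCm38) and promoters from RefSeq (GRCm38.p6), by symbol.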

Additional observations from a re-analysis of the deposited data

How the results depend on the processing

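No complement gene passed the threshold in any of the 8 other settings (scalings, filters and tests) or the 6 fits that each left out a library, and the number of members and of other complement genes called was 0 in each. Of 98 values of the 7 members, 90 kept their direction and 8 reversed. These were *C5ar1* without WT library 6 (0.018) and PYK2 KO library 2 (0.023), and *Cfp* without a filter (-0.0059), with DESeq2 (-1.6e-05), and without WT library 1 (-0.0092) or 6 (-0.023) or PYK2 KO library 2 (-0.028) or 3 (-0.0011). The cause was not tested. With a library left out, log2 fold changes ran from -0.11 to 0.023 for *C5ar1* and from -0.028 to 0.035 for *Cfp*. The number of all genes called was 25, but 159 without a filter, where more genes were tested, and 45 with the likelihood ratio test. It ran from 14 to 34 with a library left out, with 15 when either WT library 5 or PYK2 KO library 2 was dropped and 14 without PYK2 KO library 4.

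No paired analysis was possible because the genotypes share no library number. At the mean counts, counting error alone was between 1.23% and 2.83% for the C1q genes and *Cfp*, 5.58% for *C5ar1*, 6.87% for *C3* and 10.5% for *C3ar1*, and 0 counts limit what can be said of *Cfb*.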
